A study of Mus musculus with 9 samples.

Results

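The nuclear-encoded subunits of the mitochondrial respiratory chain and ATP synthase were followed across brain endothelial cells of 3 mouse genotypes. Members were taken by symbol: names starting with Nduf (but not Ndufaf), Uqcr, Cox4i, Cox5, Cox6, Cox7, Cox8 or Atp5, and Sdha to Sdhd. This gave 85 of the 23420 genes in the matrix: 38 of complex I, 4 of complex II, 8 of complex III, 18 of complex IV and 17 of complex V. Of these, 81 passed the filter on low counts, and the 4 that did not were the tissue-restricted isoforms Cox6a2, Cox7b2, Cox8b and Cox8c. The 17 of complex V include Atp5s and Atp5sl, which are counted there by name and not as subunits of the enzyme proper. None of the 13 mitochondrially encoded subunits was analysed here.

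The cells were CD31+CD45- cells sorted from brains of C57BL/6 mice labelled male and 6 months old, 20000 cells per library, with 3 libraries per genotype. The groups were WT, APP/PS1, and APP/PS1xRIPK1KD, called the compound genotype below. APP/PS1 mice carry transgenes for mutant human amyloid precursor protein and presenilin 1 and deposit amyloid in the brain. Their promoters, and the line, are not given in the sources used here. Both transgenic groups share the APP/PS1 background, and the compound genotype adds an alteration of Ripk1, a kinase of cell death and inflammatory signalling, whose abbreviation KD is not spelled out there. The labels describe 1 mouse per library.

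The respiratory chain passes electrons from NADH (complex I) and succinate (complex II) through complex III to oxygen at complex IV, and complexes I, III and IV pump protons across the inner mitochondrial membrane. Complex V, the ATP synthase, lets the protons return and makes ATP. Most subunits are encoded in the nucleus, complex II entirely so, and those of the other complexes are assembled with subunits encoded by mitochondrial DNA. Brain endothelial cells are known to draw much of their ATP from glycolysis, while the transport work of the blood-brain barrier is commonly linked to their mitochondria.

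Total expected counts ranged from 16263792 in APP/PS1 replicate 1 to 52413200 in APP/PS1 replicate 3. A count of 0 therefore allows up to 0.189 CPM in the shallowest library and 0.0541 CPM in compound replicate 3, counting 3 reads as the floor. CPM are read counts scaled to the TMM-adjusted library size. The summed level of 10 endothelial markers, Cldn5 and Pecam1 among them, was 23575 to 28621 CPM, and 4 leukocyte markers reached 4.32 CPM at most. Summed markers of other brain cells were at 39.4 to 111 CPM (astrocyte), 29.6 to 86.3 (oligodendrocyte), 50.2 to 84.2 (microglia), 105 to 229 in WT and up to 248 elsewhere (neuron), and 41.3 to 302 (choroid plexus). Ripk1 was at 45.0, 48.1 and 34.9 CPM in WT, 75.3, 52.9 and 40.9 in APP/PS1 and 31.4, 44.9 and 35.5 in the compound genotype. The altered site of Ripk1 is not given, so its level does not check the labels. Replicates 1 and 2 of each genotype had 264 to 534 CPM of Xist and at most 0.434 CPM of summed Y-linked transcripts, although labelled male. Replicate 3 of each had 150 to 185 CPM of Y-linked transcripts. Each genotype therefore holds the same mix, and the counts below are also given without replicate 3.

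Regulation of these genes is known to run in part through nuclear respiratory factor 1 (Nrf1) and GA-binding protein, whose sites are frequent in subunit promoters. In RefSeq promoter windows on GRCm38.p6, 70 of the 85 members had an entry, and 7 motifs were searched on both strands in the 250 bases before the start. The Nrf1 motif, which reads GCGCA, any base, then GCGC, was found in 12 of 70 windows (17.1%), against 3.86% of all 27025 windows of that length. The core CCGGAAG, bound by GA-binding protein and other ETS factors, was in 11 of 70 (15.7%) against 7.05%. Cox6a1, Sdhd and Atp5h held both. The cyclic AMP element TGACGTCA was in 5.71% against 1.62%, CCAAT in 44.3% against 34.5%, the GC box GGGCGG in 37.1% against 32.9%, and TATAAA in 8.57% against 12.97%. The YY1 motif AAGATGGCG was in none of the 70 and in 0.607% of all windows. Matches are letters in a window, not measured binding, and member windows were richer in G and C (median 56.2% against 52% for all). Shown here are Nrf1 matches outside annotated exons in 3 subunits of complex I and 1 of complex V, 40 bases each, 5′ to 3′ on the gene's strand with the motif in capitals, so that the shared core can be seen within unlike flanks.
Ndufs5: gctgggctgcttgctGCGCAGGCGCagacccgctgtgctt
Ndufb4: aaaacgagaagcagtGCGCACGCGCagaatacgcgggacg
Ndufa11: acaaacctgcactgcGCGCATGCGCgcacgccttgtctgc
Atp5h: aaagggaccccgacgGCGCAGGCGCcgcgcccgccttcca
They lie at chr4:123718260-123718299 (minus strand), chr16:37654535-37654574 (minus), chr17:56717687-56717726 (plus) and chr11:115420036-115420075 (minus), with the motif starting 98, 191, 60 and 141 bases before the gene start.

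Endothelial cells expressed all 5 complexes in every library, and levels are compared between genes here only as CPM per kilobase of transcript, mean ± SD over the 9 libraries. Leaving out the restricted isoforms and 1 gene without a length, the median per-kilobase level was 65.8 in complex I (37 genes), 65.5 in complex II (4), 114 in complex III (8), 163 in complex IV (11) and 123 in complex V (16). Cox4i1, a nuclear-encoded subunit of cytochrome c oxidase, had the highest level of all members at 340 ± 22.0 CPM per kb. It was followed by Atp5j (coupling factor 6 of the ATP synthase stalk) at 325 ± 13.9 and Atp5b, the catalytic beta subunit, at 310 ± 22.1. Cox6a1, a small complex IV subunit, was at 307 ± 41.8.

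Within complex I the highest per-kilobase levels were Ndufa7, an accessory subunit, at 216 ± 23.4, and Ndufa4 at 207 ± 14.8. Ndufa4 is named for complex I, but its protein is now placed in complex IV. Among the core subunits that carry the redox centres, Ndufs7, named after its values were seen, was at 111 ± 13.6, Ndufs8 at 68.3 ± 8.54, Ndufv1 (the NADH-binding flavoprotein) at 60.6 ± 5.20 and Ndufs1 at 20.1 ± 2.98 CPM per kb, on both sides of the median of complex I. Complex II ran from Sdhb, its iron-sulfur subunit, at 86.6 ± 6.95 and Sdha, its flavoprotein, at 70.2 ± 3.86 to the membrane anchor Sdhc at 23.4 ± 1.29. In complex III, Uqcrb was at 276 ± 30.1, Uqcr11 at 180 ± 9.68, the core protein Uqcrc1 at 126 ± 8.80, the Rieske iron-sulfur protein Uqcrfs1 at 55.9 ± 5.77 and Uqcrq at 30.6 ± 4.95. In complex IV, Cox5a was at 163 ± 14.001 and Cox5b at 83.1 ± 8.02. In complex V, the alpha subunit Atp5a1 was at 141 ± 12.2, the gamma subunit Atp5c1 at 121 ± 15.2, and Atp5s, named for coupling factor B and no subunit of the enzyme proper, at 6.38 ± 1.51. Per-kilobase levels depend on the transcript length taken for a gene, which was 3171 bases for Sdhc and 1521 for Uqcrq, and on how RSEM shared reads between a gene and its pseudogenes.

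**Figure D1:**
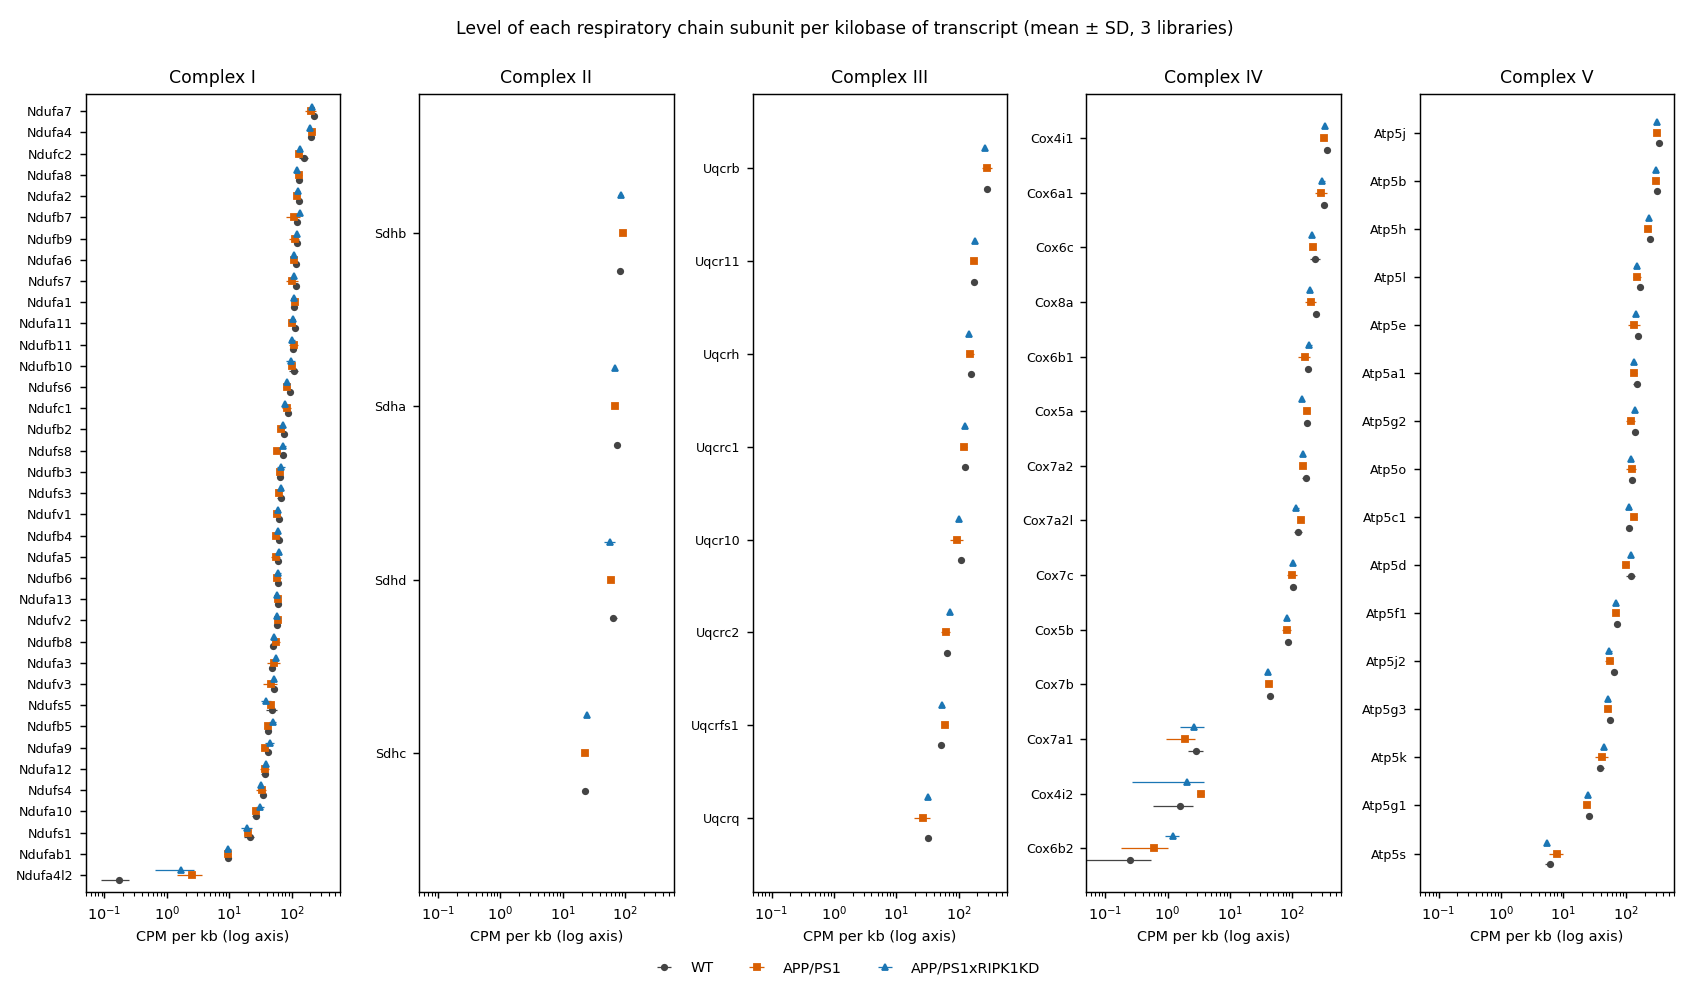
CPM per kilobase of transcript (log axis) for the tested subunits with a length that are reported here, by complex; points are genotype means and bars SD over 3 libraries, with a lower bar that would reach 0 stopped short of it. The 3 genotypes lie close together for nearly all subunits, from Cox4i1 at 340 CPM per kb downwards. For Ndufa4l2, WT (0.170) lies below APP/PS1 (2.56) and the compound genotype (1.71), whose bars overlap. Means of the low Cox6b2 (0.250, 0.602 and 1.23) and Cox4i2 (1.59, 3.45 and 2.07) also differ, in the order WT, APP/PS1 and compound.

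Paralogous isoforms were found at unequal levels, and for the c-ring genes the order depends on how the levels are taken. Of the 3 genes for the identical mature c-ring protein of ATP synthase, Atp5g2 held 58.4 to 66.1% of their per-kilobase level, Atp5g3 21.9 to 28.8% and Atp5g1 10.5 to 12.9%. The order of the last pair depends on the length taken: with the shortest linked transcript of each gene (596 bases for Atp5g1, in place of a median of 2655.5), a setting chosen after seeing the data, Atp5g2 held 40.4 to 47.4%, Atp5g1 34.4 to 39.7% and Atp5g3 15.5 to 20.4%. The first place of Atp5g2 is not found in the authors' deposited table of APP/PS1 against WT. There the log2 CPM, not divided by length, was 3.34 for Atp5g2, 5.03 for Atp5g1 and 5.86 for Atp5g3. The reason for this difference was not tested. Cox4i2 held at most 1.11% of the Cox4i pair, Cox7a1, the isoform of heart and skeletal muscle, 0.634 to 2.78% of its pair with Cox7a2, and Cox6b2, the testis isoform, at most 0.792% of its pair with Cox6b1. The muscle isoform Cox6a2 and the testis isoform Cox8c had 0 counts in all 9 libraries, which allows up to 0.189 CPM in the shallowest. The testis isoform Cox7b2 had 1 count in total and the muscle isoform Cox8b 24. Their widely expressed partners were at 126 to 202 CPM (Cox6a1), 38.8 to 46.7 CPM (Cox7b) and 87.1 to 138 CPM (Cox8a).

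APP/PS1 was compared with WT to ask whether the amyloid background alters the chain. No subunit was called: at an FDR of 0.05 by edgeR's quasi-likelihood test, 0 of 81 passed in either direction, where 0.0225% of the 13317 genes tested passed as higher and 0% as lower. At an unadjusted p under 0.05 there was 1 subunit, Ndufa4l2, higher, against 3.49% of all genes higher and 2.65% lower. DESeq2, which called 45 of all genes tested, called that same gene and no other subunit. Log2 fold changes were below 0 in 59 of 81 subunits and above 0 in 22, where 49.8% of all genes were below and 50.2% above 0. Their median was -0.087, against 0.0019 for all genes. By complex, 26 of 38 were below 0 in complex I (median -0.084), 2 of 4 in complex II (-0.048), 6 of 8 in complex III (-0.033), 11 of 14 in complex IV (-0.092) and 14 of 17 in complex V (-0.099). In the same contrast 9 of the 10 endothelial markers were below 0, with a median of -0.072.

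These small differences could be bounded closely. The 95% interval of the fold change lay within 1.5-fold either way for 72 of 81 subunits, against 26.7% of all genes tested and 42.2% of genes of at least 10 CPM on average. All 4 complex II subunits were within it, and 36 of 38 of complex I, 7 of 8 of complex III, 11 of 14 of complex IV and 14 of 17 of complex V. Between libraries of 1 genotype, the median SD of log2 CPM was 0.145 over the 77 subunits without the restricted isoforms, against 0.347 for all genes tested and 0.255 for genes of at least 10 CPM. These sets differ in level, with a median of 75.4, 18.7 and 37.5 CPM in that order. The part of expression level in the smaller spread and the narrow intervals was not tested. Atp5j had the smallest SD, 0.035, followed by Cox5a at 0.051 and Ndufa6 at 0.053, and Uqcrq had the largest, 0.271.

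**Figure D2:**
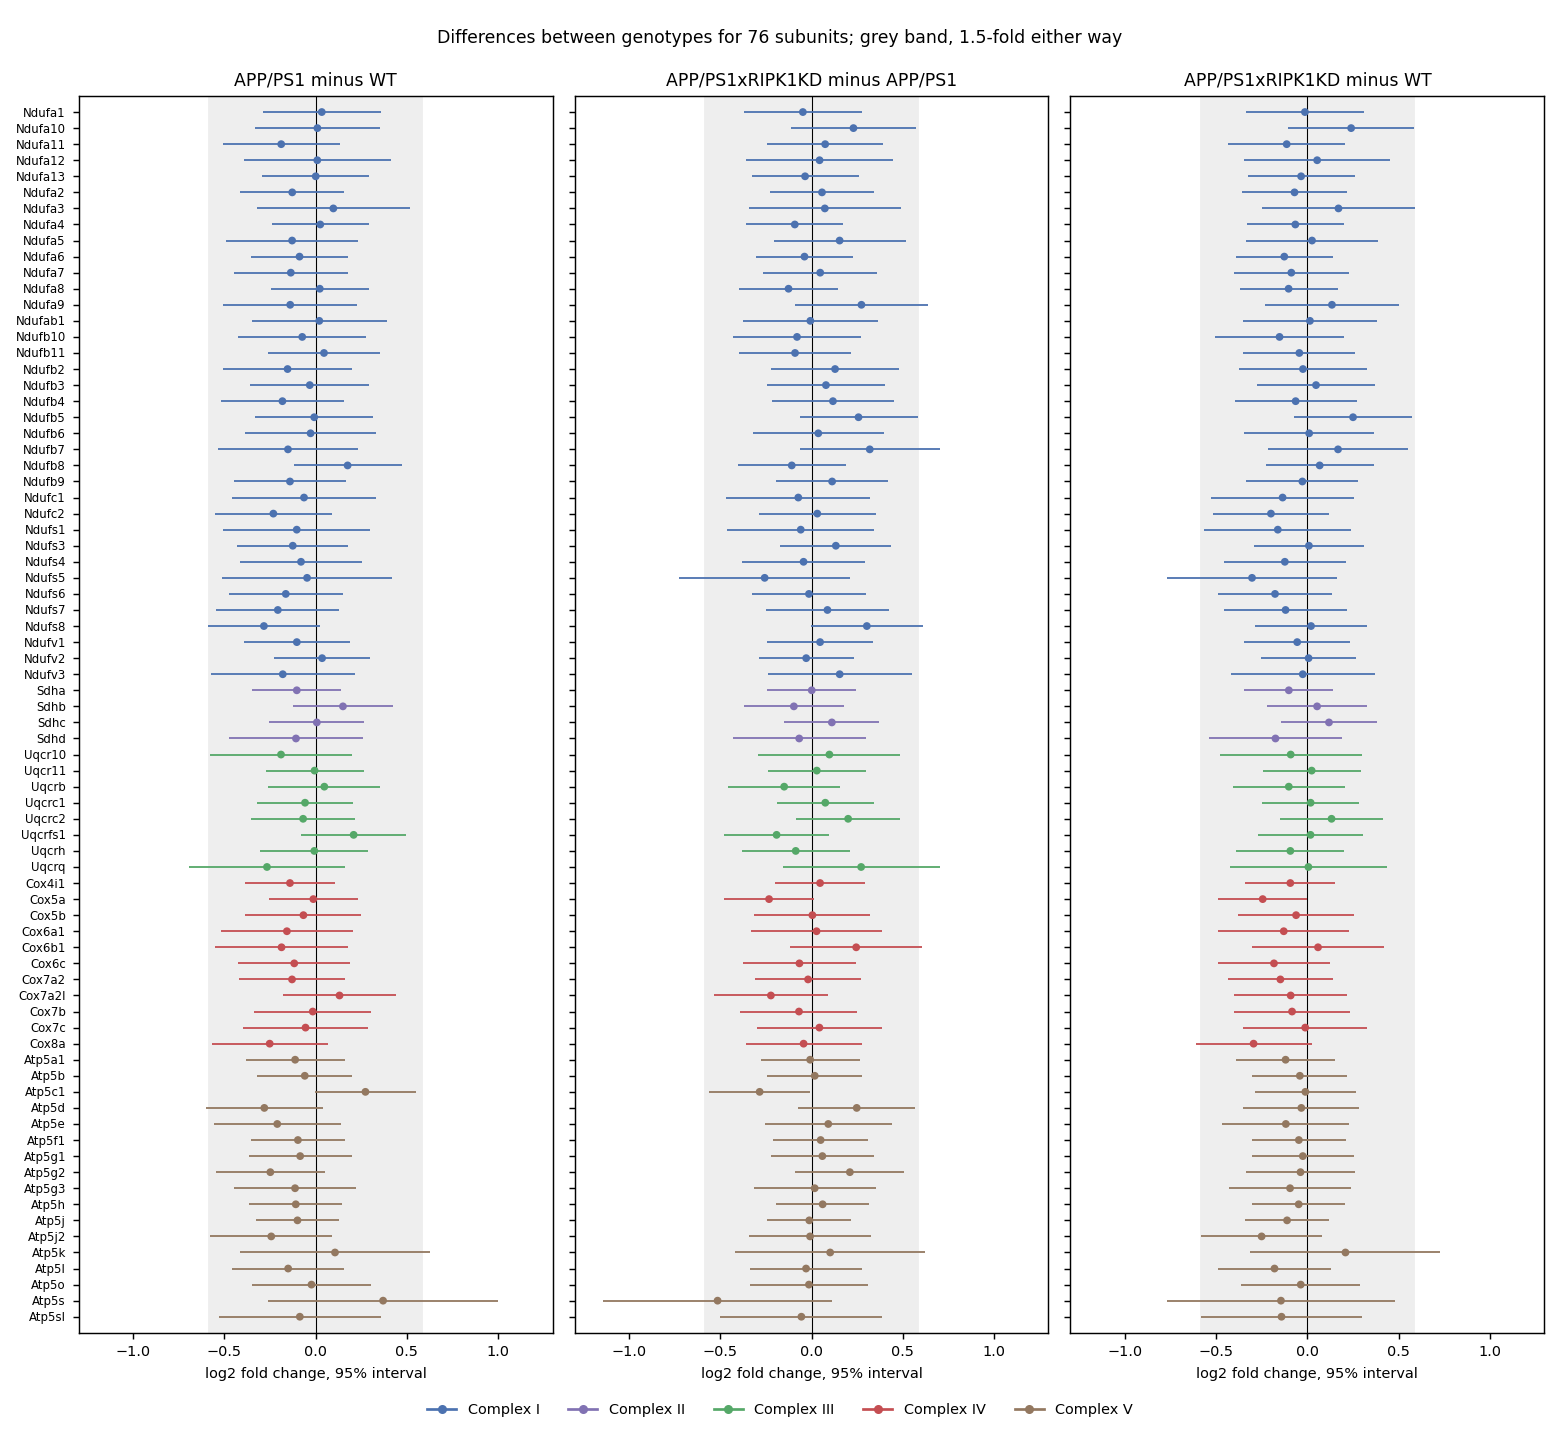
Log2 fold change and 95% interval (edgeR) for 76 subunits in the 3 comparisons, coloured by complex; the grey band spans 1.5-fold either way. Ndufa4l2, Cox4i2, Cox7a1 and Cox6b2 are left out because their intervals are several log2 units wide, and 1 further subunit of the 81 is not plotted; 71, 68 and 70 of the plotted intervals lie inside the band.

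Part of the shift below WT came with 1 library. The median deviation of the 77 subunits from their mean over 9 libraries was -0.140 log2 units in APP/PS1 replicate 1, the shallowest library, with 61 of 77 below 0. It was 0.074 in APP/PS1 replicate 2 and -0.031 in replicate 3, so replicate 2 lay above all 3 WT libraries (0.058, 0.063 and 0.021). Complexes I, III, IV and V were low together in replicate 1 (-0.208, -0.176, -0.205 and -0.133), while complex II was at 0.032. The 38 subunits with shorter transcripts stood at -0.212 there and the 38 longer ones at -0.126. Among all genes tested, the 370 with transcripts up to the same length of 807 bases stood at -0.131 in that library and the 11528 longer ones at 0.016; the part of transcript length in the result was not tested. Without APP/PS1 replicate 1 the median against WT was -0.023, with 50 of 81 subunits below 0, and without APP/PS1 replicate 2 it was -0.130, with 69 below 0.

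**Figure D3:**
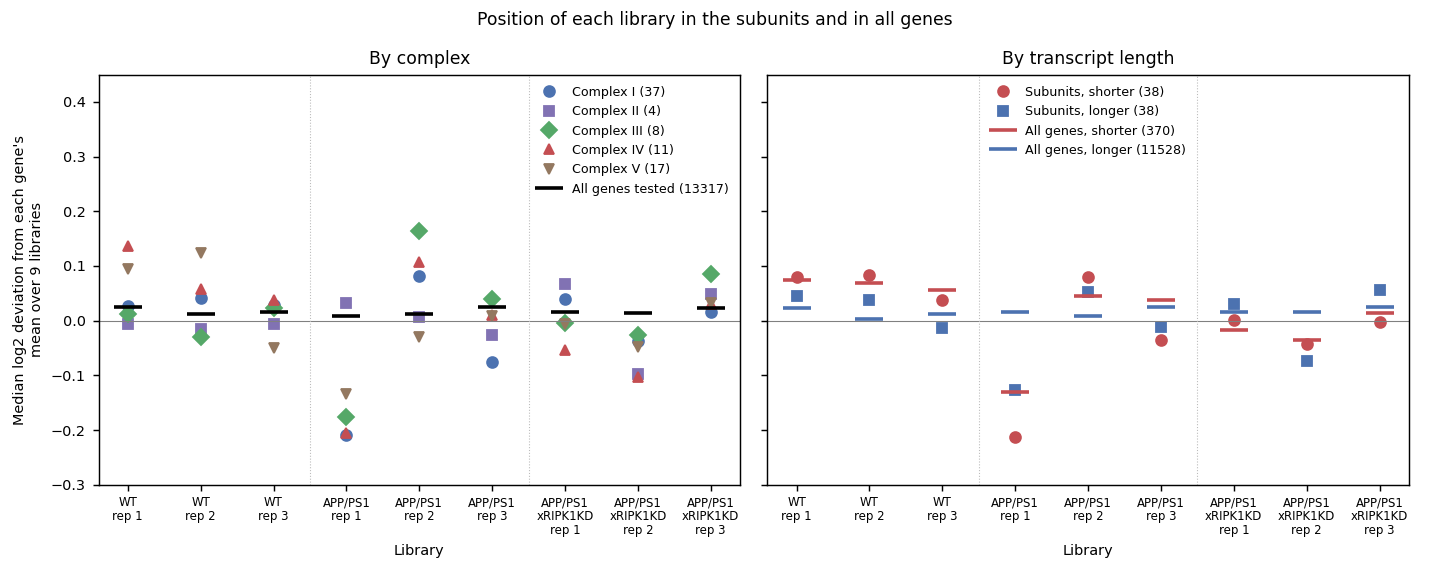
Median log2 deviation of each library from each gene's mean over 9 libraries, by complex (left) and for transcripts shorter or longer than 807 bases (right); numbers of genes are in the legends. APP/PS1 replicate 1 lies lowest for complexes I, III, IV and V and for short transcripts, with shorter subunits at -0.212.

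Summed over all 85 members, the level was 7471 ± 227 CPM in WT, 7103 ± 485 in APP/PS1 and 7175 ± 245 in the compound genotype (SD, n = 3), and the libraries overlapped. The order depends on scaling: without a scaling factor the means were 6825, 7333 and 7649 CPM. Rn45s, the ribosomal RNA precursor, took 29.6 to 33.8% of counts in WT, 15.8 to 28.6% in APP/PS1 and 20.2 to 26.4% in the compound genotype; its part in the unscaled order was not tested. Complex I summed to 2464 ± 33.2 CPM in WT and 2336 ± 226 in APP/PS1, complex IV to 1350 ± 59.3 and 1259 ± 122, and complex V to 2381 ± 145 and 2256 ± 131, each on the TMM scale with overlapping libraries.

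Only single subunits had libraries that did not overlap between APP/PS1 and WT: 4 of 81 were higher in all 3 APP/PS1 libraries (4.94%, against 5.43% of all genes) and 4 were lower (4.94%, against 5.44%). Both shares are near the background. Ndufs8, an iron-sulfur subunit of the complex I peripheral arm, had 60.4, 61.3 and 69.4 CPM in WT and 48.1, 55.7 and 53.2 in APP/PS1. Every APP/PS1 library was lower, by -0.28 ± 0.14 (log2 fold change ± SE, edgeR FDR 0.829). Atp5c1, the gamma subunit that forms the rotating shaft of ATP synthase, had 166, 179 and 149 CPM in WT and 191, 221 and 185 in APP/PS1. It stood above WT in each library (log2 fold change 0.27 ± 0.13, FDR 0.819), against the direction of the other 4 subunits of the catalytic head. Among those, the delta subunit Atp5d was at -0.28 ± 0.15 (FDR 0.829), with overlapping libraries. Uqcrfs1 had 76.6, 72.9 and 67.1 CPM in WT and 79.1, 93.6 and 77.4 in APP/PS1, a narrow separation (0.21 ± 0.13, FDR 0.861). Among the most even members, Cox4i1 ran at 274, 276 and 262 CPM in WT and 222, 256 and 258 in APP/PS1. Atp5j ran at 273, 266 and 256 against 248, 247 and 246. Their differences of -0.14 ± 0.11 and -0.10 ± 0.11 were small although no library overlapped. Atp5j2, the f subunit of the membrane part, was the remaining lower one (-0.24 ± 0.15, FDR 0.861). Atp5g2 was at -0.25 ± 0.14 (FDR 0.829) with overlapping libraries.

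Ndufa4l2 stood apart from every other subunit. It lies on GRCm38 at chr10:127514967-127517154 (plus strand, GENCODE M21; gene ENSMUSG00000040280.10, protein-coding) and encodes a paralogue of Ndufa4 known as a hypoxia-inducible gene. It had 0.0885, 0.237 and 0.150 CPM in WT, 1.51, 3.56 and 2.11 in APP/PS1, and 0.469, 1.99 and 2.34 in the compound genotype. All 6 transgenic libraries lay above all 3 WT libraries, and the 2 transgenic groups overlapped. The WT values rest on 3, 9 and 7 counts, and the APP/PS1 values on 24, 191 and 106. The log2 fold change of APP/PS1 against WT was 3.89 ± 0.98 (95% interval 1.76 to 6.02). Its p of 0.0018 gave an edgeR FDR of 0.707, and DESeq2 an adjusted p of 0.012 at 3.92 ± 0.90. Over the main edgeR setting and its alternatives the FDR ran from 0.359 to 0.981 and the log2 fold change from 3.48 to 4.29. Even so, Ndufa4l2 held at most 1.56% of the per-kilobase level of the pair with Ndufa4, whose CPM was 127 ± 3.48 in WT, 130 ± 15.3 in APP/PS1 and 122 ± 5.35 in the compound genotype.

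Cox4i2, the oxygen-responsive isoform of Cox4 at chr2:152754173-152765037 (plus strand), had 0.915, 0.580 and 1.97 CPM in WT, 2.14, 2.61 and 2.78 in APP/PS1, and 0, 2.40 and 2.11 in the compound genotype. The APP/PS1 libraries lay above WT (log2 fold change 1.12 ± 1.21, edgeR FDR 0.931), while the compound libraries overlapped both groups. Its 0 counts in compound replicate 1 allow up to 0.0612 CPM. Cox7a1 showed no such order, at 1.00, 1.50 and 0.920 CPM in WT, 1.07, 0.783 and 0.358 in APP/PS1 and 0.734, 1.55 and 0.883 in the compound genotype. Ndufa4l2 and Cox4i2 are both known as transcripts of brain pericytes, a mural cell type. Cox7a1 was treated with them as a mural member, and each was left out of the mural markers below. Unlike theirs, its log2 fold change in APP/PS1 against WT was below 0, at -0.64. Of 16 mural markers, 15 were above 0 in APP/PS1 against WT (median log2 fold change 2.45) and 2 passed the FDR threshold, Vtn and Atp13a5 (FDR 0.0135 each). Their summed level was 17.1 to 73.3 CPM in WT, 218 to 285 in APP/PS1 and 77.2 to 331 in the compound genotype. Within WT the library with the most mural marker CPM, replicate 1 at 73.3, had the least Ndufa4l2, a value that rests on 3 counts. Within APP/PS1 the library with the most mural marker CPM, replicate 2 at 285, also had the most Ndufa4l2. The same held within the compound genotype for replicate 3 at 331. Among the markers, 3 were at 0 in some library: Pdgfrb and Des in 1 each and Cnn1 in 2. Markers of other cells were also above 0 in this comparison with 0 called by edgeR: 7 of 7 for oligodendrocytes (median log2 fold change 2.88), 6 of 7 for astrocytes (1.60), 3 of 4 for choroid plexus (1.37), 2 of 2 for erythroid cells (1.10; 1088 to 5329 CPM summed over all libraries) and 5 of 6 for microglia (0.53). Some of these markers were near the floor: Gjb6, Ntsr2 and Mog had 0 CPM in every WT library. Summed astrocyte markers were at 76.1 ± 35.7 CPM in WT and 74.7 ± 3.73 in APP/PS1. Summed oligodendrocyte markers were at 33.7 ± 5.88 and 57.4 ± 26.8 CPM. Neuron markers were mixed, with 2 of 3 above 0 (median 0.14, lowest -1.96), and the 1 leukocyte marker tested was below 0 (-1.28). The part of RNA from mural or other cells in the Ndufa4l2 and Cox4i2 values was not tested, and in bulk samples fewer cells of a type cannot be told apart from less RNA per cell.

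**Figure D4:**
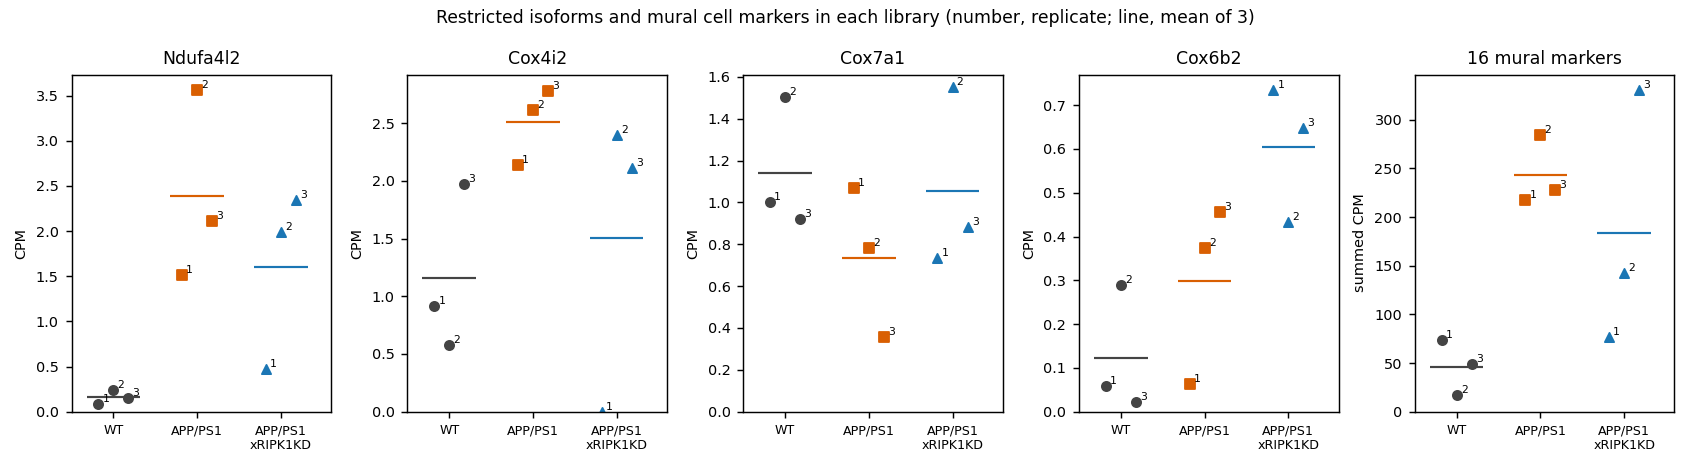
CPM of 4 isoforms of restricted tissue expression and summed CPM of 16 mural cell markers in each library (numbers are replicates, lines the means of 3). Ndufa4l2 is between 0.0885 and 0.237 CPM in WT and at 0.469 CPM or more elsewhere, and mural markers are at 73.3 CPM or less in WT; compound replicate 1 has 0 CPM of Cox4i2.

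The compound genotype was compared with APP/PS1 to ask what the Ripk1 alteration adds. Again 0 of 81 subunits passed the FDR of 0.05 by edgeR, where 0% of all genes passed as higher and 0.00751% as lower. DESeq2 called 0 subunits and 19 of all genes tested. At an unadjusted p under 0.05 there was 1 subunit, Atp5c1, lower, against 2.34% of all genes lower and 2.44% higher. Log2 fold changes were above 0 in 45 of 81 and below 0 in 36, where 49.4% of all genes were above and 50.6% below, and their median was 0.028 against -0.0034 for all genes. The interval lay within 1.5-fold for 69 of 81, against 28% of all genes and 44.3% of genes of at least 10 CPM. The sign of the median rests on APP/PS1 replicate 1: without it the median was -0.043 with 56 of 81 below 0, and without APP/PS1 replicate 2 it was 0.092 with 60 above 0. It was 0.0069 without compound replicate 3 and 0.044 without compound replicate 2.

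Libraries did not overlap for 3 subunits that were higher in the compound genotype (3.70%, against 5.32% of all genes) and 4 that were lower (4.94%, against 4.66%). The higher ones were Ndufs8, Ndufb7 and Atp5d. Ndufs8 stood at 72.04, 58.6 and 63.2 CPM, within the WT range or near it (log2 fold change against APP/PS1 0.30 ± 0.14, edgeR FDR 1). Ndufb7, an accessory subunit of the membrane arm, had 86.7, 80.2 and 87.8 CPM against 47.5, 76.7 and 79.7 in APP/PS1 (0.32 ± 0.18). Its lowest value was again in APP/PS1 replicate 1. Ndufb5 was at 0.26 ± 0.15 with overlapping libraries. The lower ones were Atp5c1, Cox5a, Atp5s and Ndufs5, the last named after its values were seen. Atp5c1 was at 154, 162 and 174 CPM, below every APP/PS1 library and among the WT values (-0.28 ± 0.13, FDR 1). Atp5c1 and Ndufs8 thus lay on opposite sides of WT in APP/PS1 and near WT in the compound genotype; both comparisons share the APP/PS1 libraries, so the return is not independent of the first difference. Atp5s was at 8.16, 7.99 and 7.96 CPM against 13.9, 12.4 and 8.23 in APP/PS1 (-0.52 ± 0.29).

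Against WT, the compound genotype had 0 of 81 subunits past the FDR of 0.05 by edgeR, where 0.015% of all genes passed as higher and 0.0225% as lower. At an unadjusted p under 0.05 there were 2, Ndufa4l2 higher (2.97% of all genes higher) and Cox5a lower (3.21% lower). Ndufa4l2 had a log2 fold change of 3.31 ± 0.96 (edgeR FDR 0.569, and 0.565 to 0.891 over its settings). DESeq2, which called 62 of all genes tested, called it alone among the subunits, at 3.33 ± 0.90 (adjusted p 0.049). The members' median was -0.047, with 54 of 81 below 0 and 27 above, against 49.4% and 50.6% of all genes. It was -0.026 without WT replicate 2 and -0.027 without compound replicate 2. Complex V had 16 of 17 below 0 (median -0.048) and complex IV 11 of 14 (-0.093), while complex III had 3 of 8 (0.011), complex I 22 of 38 (-0.027) and complex II 2 of 4 (-0.024). The interval lay within 1.5-fold for 71 of 81, against 27.6% of all genes and 43.7% of genes of at least 10 CPM.

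Here 10 of 81 subunits were lower in all 3 compound libraries than in any WT library (12.3%, against 5.99% of all genes) and 6 were higher (7.41%, against 6.05%). Cox5a, a nuclear-encoded subunit on the matrix side of complex IV, at chr9:57521274-57532426 (plus strand), had 115, 108 and 111 CPM in WT, 113, 112 and 106 in APP/PS1 and 96.8, 94.7 and 89.5 in the compound genotype. WT and APP/PS1 overlapped, and the compound libraries lay below all 6 of them. Its log2 fold change was -0.24 ± 0.11 against WT (edgeR FDR 0.805) and -0.23 ± 0.11 against APP/PS1 (FDR 1), and it stayed between -0.27 and -0.21 against WT in every edgeR setting run. The edgeR p of Cox5a against WT was under 0.05 in the main fit and in the fit of these 2 genotypes alone (0.0467). It was above 0.05 in every other edgeR setting run, up to 0.166 with replicates 1 and 2 only. Cox8a, a small membrane subunit of complex IV, had 132, 138 and 123 CPM in WT and 99.8, 107 and 113 in the compound genotype (-0.30 ± 0.15, FDR 0.847). Atp5j2 was at 64.5, 61.6 and 59.7 against 46.7, 52.3 and 57.0 CPM (-0.25 ± 0.15), and Atp5j and Sdha were at -0.11 ± 0.11 and -0.10 ± 0.11. The other 5, named after their values were seen, were all of complex I: Ndufa6, Ndufc1, Ndufs4, Ndufs6 and Ndufs7. The 6 higher ones were Ndufa4l2, Cox6b2, Ndufb7, Sdhc and, named after their values were seen, Ndufa3 and Uqcrc2. Cox6b2 was at 0.059, 0.290 and 0.0214 CPM in WT and 0.734, 0.434 and 0.649 in the compound genotype (2.27 ± 1.45, FDR 0.902). Ndufb5 was at 0.25 ± 0.15 with overlapping libraries.

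With replicates 1 and 2 only, the libraries with Xist, 0 subunits passed in each comparison, and the medians were -0.070, 0.022 and -0.095 in the order given above. The last was -0.047 with all libraries.

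Genes that build and regulate the chain were read as lists beside the subunits. Of 44 assembly factors, 37 were in the matrix and all 37 were tested. By edgeR 0 passed the FDR in each comparison. In APP/PS1 against WT, 18 were above and 19 below 0 (median -0.0017), and 2 of 37 had p under 0.05, both lower, where 2.65% of all genes did. Sdhaf1, which serves iron-sulfur insertion into Sdhb, had 27.0, 21.3 and 23.0 CPM in WT and 15.7, 15.4 and 15.2 in APP/PS1 (-0.62 ± 0.19, FDR 0.787). Sdhaf2, which serves attachment of flavin to Sdha, had 42.2, 39.0 and 45.8 against 31.5, 34.1 and 29.9 CPM (-0.41 ± 0.16, FDR 0.793). No library overlapped for either, while Sdhb itself was at 0.15 ± 0.13 and Sdha at -0.10 ± 0.11. In the compound genotype Sdhaf1 was at 19.7, 20.9 and 19.9 CPM and Sdhaf2 at 44.6, 35.1 and 39.7. Against APP/PS1, 13 assembly factors were above and 24 below 0, and Cox15 (heme A synthesis) and Bcs1l (insertion of Uqcrfs1) had p under 0.05, both higher, at 0.68 ± 0.27 and 0.86 ± 0.39 (FDR 0.9804 and 1). Against WT, 17 were above and 20 below 0, and Ndufaf3 and Cox15 had the smallest p, at -0.31 ± 0.19 and 0.42 ± 0.27 (FDR 0.902 and 0.908).

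Of 15 regulators of mitochondrial biogenesis 14 were in the matrix and 13 were tested, and by edgeR 0 passed the FDR in each comparison. In APP/PS1 against WT 6 were above and 7 below 0, and 4 had p under 0.05, 2 higher and 2 lower, where 3.49% and 2.65% of all genes did. Tfam, which packages and transcribes mitochondrial DNA, had 12.9, 14.9 and 17.3 CPM in WT, 20.2, 20.9 and 27.4 in APP/PS1 and 22.7, 21.4 and 20.7 in the compound genotype. All 6 transgenic libraries lay above WT (0.60 ± 0.21, FDR 0.787, and 0.52 ± 0.21, FDR 0.756). Polrmt, the mitochondrial RNA polymerase, ran the other way, at 36.0, 21.4 and 24.4 CPM in WT and 17.1, 12.9 and 21.1 in APP/PS1 (-0.68 ± 0.26, FDR 0.793). The other two, named after their values were seen, were Nrf1 (-0.46, FDR 0.805) and Gabpa (0.44, FDR 0.795), the factors whose motifs were searched above. Nrf1 had 42.5, 57.7 and 37.0 CPM in WT and 30.6, 27.3 and 42.0 in APP/PS1, which overlapped. Gabpa had 43.4, 31.4 and 37.9 against 53.7, 52.8 and 46.6 CPM, which did not. Against APP/PS1 the compound genotype had 5 regulators above and 8 below 0, with Polg (-0.31 ± 0.18) and Pprc1 (0.48 ± 0.29) at the smallest p. Against WT it had 7 above and 6 below, and Tfam and Polg, the mitochondrial DNA polymerase (-0.43 ± 0.18, FDR 0.776), had p under 0.05.

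Among 6 electron carriers and inhibitors, 0 passed the FDR by edgeR in each comparison. Cycs, cytochrome c, which carries electrons from complex III to complex IV, had 60.7, 77.6 and 80.4 CPM in WT, 88.9, 125 and 79.3 in APP/PS1 and 92.6, 80.2 and 79.8 in the compound genotype. The groups overlapped, and APP/PS1 against WT was at 0.42 ± 0.18 (FDR 0.795), the only one of the 6 with p under 0.05 in any comparison. Atpif1, the inhibitor of ATP synthase, had 56.0, 42.5 and 45.6 CPM in WT and 36.1, 40.1 and 38.7 in APP/PS1, all lower (-0.32 ± 0.16, FDR 0.829).

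The authors' deposited table of APP/PS1 against WT held the same 81 members. There, 58 were below 0, and the median was -0.092, against -0.0037 for all 12460 genes in it. At an FDR of 0.05, 0 of the 81 passed, where 26 of the 12460 genes did. By its likelihood ratio test 2 members had an unadjusted p under 0.05, Ndufa4l2 and Ndufs8. Ndufa4l2 had the smallest FDR of a member in the authors' deposited table, 0.0643, with a log2 fold change of 3.57. Of the 81, 74 had the same sign in the authors' deposited table as in the fit described here, from the same libraries.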

How the data were processed

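Poly(A)-primed Smart-seq2 libraries, which keep no strand and carry no molecular identifiers, were deposited in the unit of expected counts, 1 value per gene symbol. Per the submitters' processing notes the authors used Bowtie 0.12.2, RSEM, edgeR 3.10.2 and mm10 (GRCm38), with the gene annotation not given in the sources used here. The authors also deposited an edgeR table of APP/PS1 against WT with log2 fold changes, a likelihood ratio score, p-values and FDR.

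Counts were rounded, kept by filterByExpr (minimum count 10, total 15; 13317 of 23420 genes), TMM-scaled and fitted in 1 quasi-likelihood model over 9 libraries (edgeR 4.0.16, R 4.3.3), 2-sided, with Benjamini-Hochberg adjustment over all genes tested. SEs were taken from the log2 fold change and its F statistic. Median deviations and SDs between libraries used log2 CPM with a prior count of 2. Lengths are medians of GENCODE M21 protein-coding transcripts linked to RefSeq. DESeq2 1.42.0 was an alternative, with other scalings, no filter, 2-genotype fits, a replicate block and leave-one-out fits. Deviations of replicates with the same number correlated weakly, from -0.019 to 0.098 over 9 pairs. The replicate 3 libraries, those with Y-linked transcripts, each correlated best with another replicate 3. Their values were 0.098 (WT and compound), 0.054 (APP/PS1 and compound) and 0.039 (WT and APP/PS1). The edgeR p-values set each difference against the spread between these libraries, estimated over the 3 genotypes together with information shared across genes. Floors cover counting error only.

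Members and lists were chosen with earlier results of these data known. Named by rule were members past the FDR, the 3 with the smallest p per direction and comparison, per complex the 2 highest and the lowest per kilobase, core subunits, isoform sets, and 2 genes per other list. Of the genes so selected, 1 is counted but not reported here by name.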

Additional observations from a re-analysis of the deposited data

How the results depend on the processing

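By edgeR, 0 subunits were called in each comparison under every alternative run. DESeq2 called 1 in APP/PS1 against WT and 1 in the compound genotype against WT, Ndufa4l2 both times. Over all genes tested DESeq2 called 45 and 62 in these comparisons, where edgeR called 3 and 5. Which property of the tools separates them was not tested. The median of the compound genotype against APP/PS1 (0.028) ran from -0.043 to 0.092 when 1 library was left out, and its sign turned only without APP/PS1 replicate 1. Medians of the other 2 comparisons kept their sign in all 14 alternatives each. With a replicate block the medians were -0.088, 0.029 and -0.045 with 0 called; same-numbered libraries do not share a source in the labels, and 4 of 9 correlated best with their own number. Among single named subunits, 1613 values kept their side of the threshold and moved by less than their SE, 23 moved further and 2 gained a call, the DESeq2 calls of Ndufa4l2. The replicates 1 and 2 setting was chosen after seeing the data. Depth limits the restricted isoforms, whose WT values rest on few counts. The order of the summed levels depends on scaling; the cause was not tested.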
